A study of Mus musculus with 6 samples.

Results

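Neurons and the Schwann cells that wrap their axons were followed through 33 genes in the stria vascularis of mice with a mutation of Errb and in wild-type mice. The stria vascularis lines the outer wall of the cochlea and pumps potassium into the endolymph, and Errb (also Nr3b2, Esrrb in the gene tables) encodes estrogen-related receptor beta, an orphan nuclear receptor. Each gene was read by the probe set, among those annotated with exactly 1 gene symbol, that had the highest mean over the 6 arrays. In this way 32 of the 33 genes were measured, of 18193 genes in all: 22 genes of neurons and 10 of Schwann cells and other peripheral glia. Prx is not analysed here.

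Wild type comprised 3 pools of stria vascularis RNA and the mutant 3 pools, with 10 mice in a pool and 1 Affymetrix array for each pool. The mutants came from a conditional knock-out, and neither the driver of the deletion nor the cells it reaches are stated in these sources. An age of postnatal day 3 to 5 is stated for wild-type replicate 1 alone. Sample labels name stria vascularis as the tissue, whereas the design text names inner ears; the labels are followed. The values are log2 expression per probe set, and wild type and mutant arrays with the same replicate number are called a pair. The 33 genes were chosen by their role in nerve and by measured values, namely the mutant minus wild-type differences of these arrays and their size in pair 1. Their values are therefore described without a test.

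A spiral ganglion neuron has its cell body, and so most of its messenger RNA, in the ganglion at the core of the cochlea, and sends its axon through the cochlear nerve. Schwann cells lie along that axon and make its myelin, and satellite glia and immature Schwann cells share a neural crest origin with the melanocytes of the stria. Spiral ganglion axons end on hair cells and do not run through the strial epithelium. Several of the genes below are also made by cells other than nerve. In RNA from a dissected tissue, a larger number of cells of a type and more RNA per cell cannot be told apart.

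Tissue markers were measured first. The 5 marginal cell markers lay at a median percentile of 92.6 to 96.2 among all probe sets on the wild-type arrays, and all 5 were lower in the mutant in every pair, with medians of -1.62, -1.51 and -1.19 in pairs 1 to 3. The 7 markers of melanocytes and the melanocyte-like intermediate cells of the stria lay at 89.9 to 93.0 in wild type, and 6 of the 7 were lower in the mutant in every pair (9.03% of all genes were), with medians of -0.60, -0.97 and -0.72. The best expressed Esrrb probe set ranged from 9.68 to 10.60 (log2) in wild type and from 9.76 to 10.28 in the mutant; where it lies relative to the deleted part is not given, so it checks nothing. Pair 1 stood apart technically. Both arrays of pair 1 held exactly equal values for 34.2% of probe sets, against 2.63% and 3.10% in pairs 2 and 3. The difference between the 3' and the 5' control probe set of Gapdh, which widens as RNA degrades, stood at 2.28 on the wild-type and 2.57 on the mutant array of pair 1 and between -0.04 and 0.51 on the other arrays. Since array medians differed between pairs (6.07 in wild-type replicate 1, 6.95 and 6.42 in the others), levels are compared across pairs as percentiles of all probe sets on the same array.

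Nerve genes were higher in the mutant of pair 1, and the gap was made by a subset of them. In pair 1, 9 of the 22 neuron genes and 3 of the 10 glial genes were higher in the mutant by over 1 on the log2 scale, a 2-fold step, and none was lower by that much. Of all genes 0.489% were higher and 0.605% lower by over 1 in pair 1. The rule for these genes used the same contrast, so nothing is read from the excess. In pair 2 only Sox2 was higher by over 1 and in pair 3 no gene was, where 0.0824% and 0.165% of all genes were. The median over the neuron genes was 0.85 in pair 1, 0.17 in pair 2 and 0.18 in pair 3, a mean of 0.40 ± 0.39 (SD, n = 3 pairs). The median over the glial genes was 0.53, -0.04 and -0.0048, a mean of 0.16 ± 0.32 (SD, n = 3 pairs). Without pair 1 these means were 0.17 and -0.023, so the glial median changed sign. The median of all genes was 0 in pairs 1 and 2 and 0.02 in pair 3. In all 3 pairs the mutant was higher for 13 of the 32 genes, 10 of them neuronal, where 12.9% of all genes were.

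Levels on each array are given next as a description, since choosing genes by their pair 1 difference favours those that are high on mutant replicate 1 or low on wild-type replicate 1. The neuron genes had a median percentile of 73.2 on the array of mutant replicate 1 and of 47.8 to 50.3 on the other 5. Of the 22, 17 reached their highest percentile on mutant replicate 1 and 5 their lowest on wild-type replicate 1, where 26.2% and 11.7% of all genes did; nothing is read from the excess. For the 10 glial genes these counts were 6 and 2, and their median percentile ran only from 69.1 to 74.0 over the 6 arrays.

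**Figure D1:**
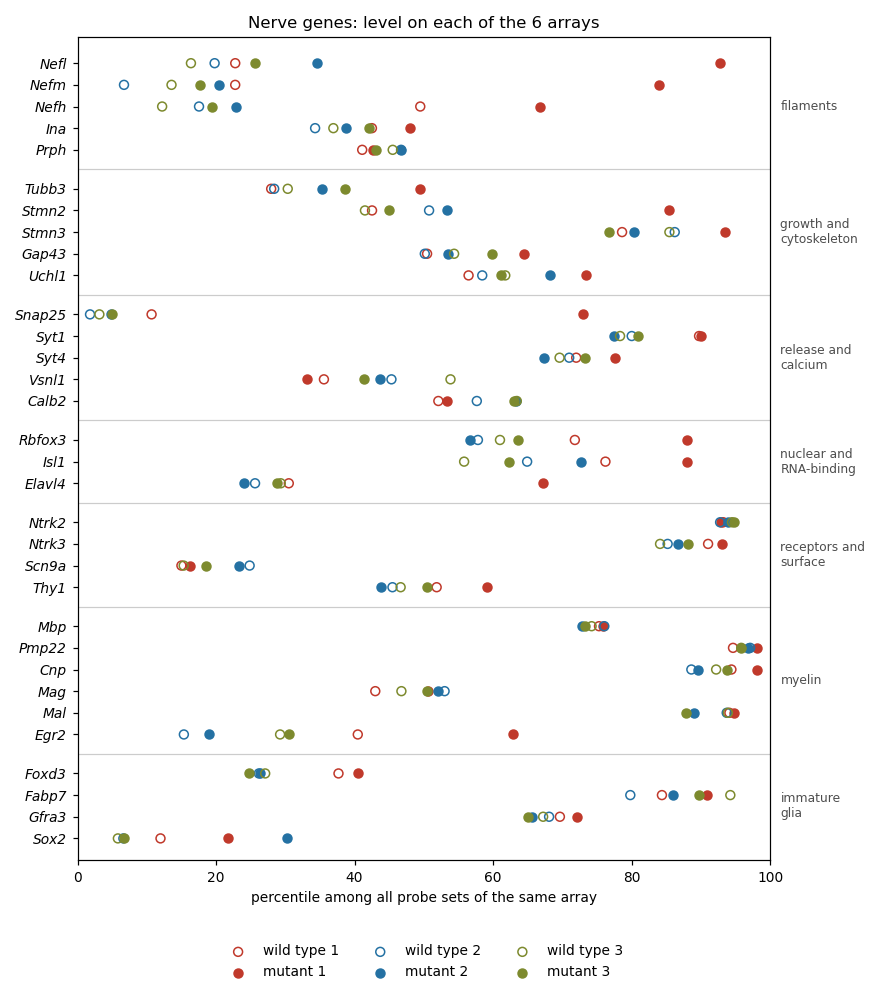
Level of each of the 32 nerve genes on each of the 6 arrays (1 pool of 10 mice each), as the percentile (x axis) among all probe sets of the same array. Open circles are wild type, filled circles mutant, and colours mark the replicate number; Nefl stands at 92.8 on mutant replicate 1 and between 16.4 and 34.5 on the other 5 arrays.

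The neuronal intermediate filaments gave the largest gaps. Nefl, the light neurofilament subunit on which the axonal filament network is built, read 4.63, 5.30 and 4.40 (log2, replicates 1 to 3) in wild type and 9.25, 6.12 and 4.94 in the mutant. The mutant was 24.7-fold higher in pair 1, the highest of all 18193 genes there, and the other pairs differed by 0.82 and 0.54. Mutant replicate 1 was thus the single high array, and the genotypes overlapped in log2 values. As percentiles they did not, at 22.8 or lower in wild type and 25.6 or higher in the mutant. Overlap as percentiles was not counted over all genes, so nothing is read from it. Nefm, the medium subunit, read 4.63, 4.31 and 4.21 in wild type and 8.23, 5.31 and 4.45 in the mutant. Its differences of 3.60, 0.99 and 0.24 kept the same order of pairs as those of Nefl. Nefh, the heavy subunit that is added as axons mature, read 6.05, 5.16 and 4.12 in wild type and 6.99, 5.47 and 4.56 in the mutant. It was already higher in wild-type replicate 1 than in any other array outside pair 1, and its pair 1 difference of 0.94 fell just short of the 2-fold step. Ina, which encodes alpha-internexin, a filament protein of young neurons, differed by 0.29, 0.20 and 0.24 by its best expressed probe set. It differed by 0.83, 0.07 and -0.07 by the second and by 0.28, 0.15 and -0.15 by the third. The second gave the widest difference in pair 1. Prph encodes peripherin, the filament protein of peripheral neurons that also marks the type II spiral ganglion neurons of outer hair cells. By its best expressed probe set it differed by 0.09, -0.02 and -0.18, and by its least expressed one by 2.01, 0.05 and -0.38. In pair 1 the filament genes thus ran from 0.09 to 4.63 when each was read once, at its best expressed probe set.

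Genes of axon growth and the neuronal cytoskeleton were higher in all 5 cases in pair 1. Of all 18193 genes, 6249 were higher there and 5841 exactly equal. The 5 were chosen partly by that difference, so nothing is read from their count. Stmn2, a stathmin that regulates microtubules in growing axons, read 5.70, 6.99 and 5.93 in wild type and 8.35, 7.12 and 6.09 in the mutant. It differed by 2.65 in pair 1 and by 0.13 and 0.16 in the others, and its second probe set by 4.29, 0.44 and 0.12. Stmn3, a related stathmin, read 7.83, 9.31 and 8.79 in wild type and 9.40, 8.84 and 8.15 in the mutant. Its direction turned between pairs: 1.57 higher in pair 1 and then -0.47 and -0.64, with the second probe set at 0.81, -0.72 and -0.93. Tubb3, the neuronal beta-tubulin, read 4.93, 5.82 and 5.29 in wild type and 6.05, 6.16 and 5.71 in the mutant. It was higher in all 3 pairs, by 1.12, 0.34 and 0.42. Gap43, a growth cone protein, differed by 0.76, 0.17 and 0.32, and Uchl1, an abundant neuronal deubiquitinase, by 1.00, 0.59 and -0.06. Uchl1 lay just inside the 2-fold step.

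Promoter sequence, 250 bases before to 50 after the transcription start, was held for 21 of the 33 genes (35 start sites) in RefSeq on GRCm38.p6. The promoters of Tubb3 and Stmn3 are shown because both genes passed the 2-fold step in pair 1 and only Tubb3 kept its direction in the others. Letters were searched on both strands for CAGCACC and GGACAGC, parts of the left and right arms of the element bound by the repressor REST, which keeps neuronal genes off in other cells, and for ACAAAG, a core bound by SOX proteins such as Sox10 and Sox2. Matches are in capitals, and overlaps between these motifs were allowed. CAGCACC occurs in 7.14%, GGACAGC in 6.56% and ACAAAG in 18.7% of the 32851 promoters in the table. Tubb3 lies at chr8:123411303-123411602 on the plus strand and Stmn3 at chr2:181314451-181314750 on the minus strand.
Tubb3: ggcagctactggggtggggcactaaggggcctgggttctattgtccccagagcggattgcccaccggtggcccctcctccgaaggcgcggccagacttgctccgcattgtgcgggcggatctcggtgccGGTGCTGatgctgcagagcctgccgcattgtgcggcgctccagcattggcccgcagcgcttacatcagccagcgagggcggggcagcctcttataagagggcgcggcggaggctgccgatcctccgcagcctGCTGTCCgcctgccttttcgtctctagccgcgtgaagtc
Stmn3: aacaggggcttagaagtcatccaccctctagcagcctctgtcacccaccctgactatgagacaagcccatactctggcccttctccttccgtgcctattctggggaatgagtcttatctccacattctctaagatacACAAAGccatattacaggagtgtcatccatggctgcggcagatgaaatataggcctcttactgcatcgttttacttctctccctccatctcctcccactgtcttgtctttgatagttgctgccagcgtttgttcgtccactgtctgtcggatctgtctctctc
The Tubb3 promoter holds CAGCACC on the opposite strand 121 bases before the start site and GGACAGC, also on the opposite strand, past the start site. The Stmn3 promoter holds ACAAAG 113 bases before the start site and neither arm. Tubb3 was the only gene of the 21 with CAGCACC, and the longer arm TTCAGCACC was in none of the 35 promoters and in 0.371% of all. These matches are a description of the letters.

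Among genes of vesicle release and calcium handling, 1 gene passed the 2-fold step in pair 1. Snap25, a membrane-anchored protein that acts in the fusion of synaptic vesicles, read 3.81, 3.77 and 3.40 in wild type and 7.39, 4.10 and 3.55 in the mutant. On every array but mutant replicate 1 it lay at the 10.7 percentile or lower, and on that array at 73.0, a 12.0-fold difference within pair 1. Its second probe set differed by 0.43 there. Syt1, the calcium sensor of fast release, read 8.88, 8.78 and 8.23 in wild type and 8.86, 8.62 and 8.47 in the mutant. Its 4 probe sets differed by -0.11 to 0.05 in pair 1. In pair 3 they disagreed, at 0.24, -0.79, 0.22 and -1.01 from the best to the least expressed. Syt4, a synaptotagmin also found in glia and hair cells, differed by 0.35, -0.23 and 0.28, and by its second probe set by 0.84, -0.13 and 0.20. Vsnl1, a neuronal calcium sensor, differed by -0.09, -0.10 and -0.77. By that probe set it was the only gene of the 32 that was lower in the mutant in all 3 pairs, and its second probe set was higher in pair 1 (0.43, -0.10 and -0.32). Calb2 encodes calretinin, a calcium buffer of inner hair cells and type I ganglion neurons, and differed by 0.08, 0.33 and -0.03. Well expressed Syt1, at the 77.4 percentile or higher on every array, thus showed no gap in the pair where Snap25 showed one of 3.58.

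Neuronal nuclear and RNA-binding proteins were higher in pair 1 as well. Elavl4, the RNA-binding protein HuD of postmitotic neurons, read 5.07, 5.66 and 5.23 in wild type and 7.02, 5.53 and 5.14 in the mutant. It differed by 1.95 in pair 1 and by -0.13 and -0.09 in the others, with 1.90 and 0.33 in pair 1 by its other probe sets. Rbfox3, the neuronal splicing factor NeuN, read 7.35, 7.37 and 7.07 in wild type and 8.62, 7.31 and 7.24 in the mutant. The pair 1 difference of 1.28 was not shared by its other probe sets, at 0.06 and 0.23. Isl1, a homeodomain factor of ganglion neurons and developing hair cells, read 7.65, 7.77 and 6.76 in wild type and 8.63, 8.30 and 7.14 in the mutant. It was higher in all 3 pairs, by 0.97, 0.53 and 0.38, and its second probe set by 0.58, 0.54 and 0.31.

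Receptors and surface proteins showed little of the gap by their best expressed probe sets. Ntrk2, the receptor of brain-derived neurotrophic factor, on which vestibular and cochlear neurons depend, read 9.39, 10.13 and 10.00 in wild type and 9.27, 10.35 and 10.11 in the mutant, differences of -0.12, 0.23 and 0.11. Ntrk3, the neurotrophin-3 receptor needed by cochlear neurons, differed by 0.26, 0.18 and 0.45. Both lay at the 84.1 percentile or higher on all 6 arrays. Thy1, a surface glycoprotein of neurons, differed by 0.39, -0.10 and 0.18, and Scn9a, a voltage-gated sodium channel of peripheral sensory neurons, by 0.12, -0.12 and 0.17. Less expressed probe sets read otherwise: 1 of the 8 for Ntrk2 differed by 1.94 in pair 1, and 2 of the 5 for Scn9a by 2.34 and 1.00. In pairs 2 and 3 these 3 probe sets differed by -0.12 to 0.28.

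**Figure D2:**
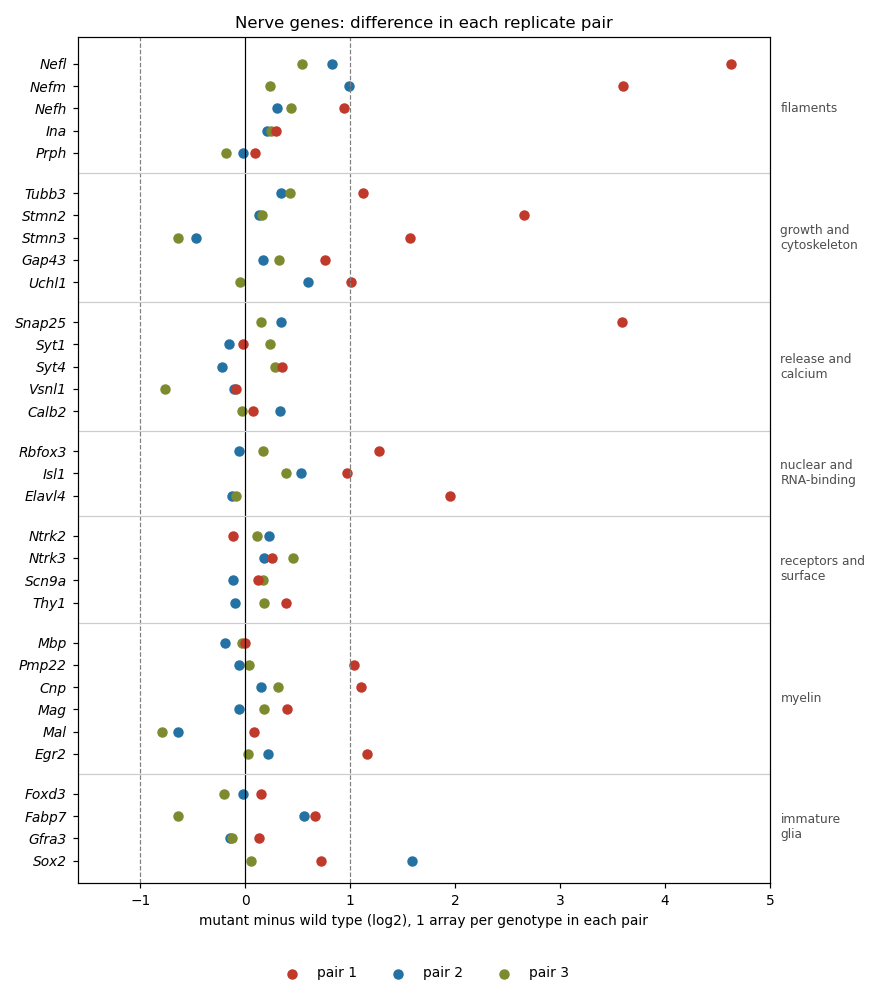
Mutant minus wild type (x axis, log2) for each of the 32 nerve genes in each replicate pair, with 1 array per genotype in a pair and dashed lines at -1 and 1. Pair 1 (red) extends to 4.63 for Nefl, whereas all points of pairs 2 and 3 lie between -0.79 and 1.59.

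Of the myelin genes 3 of 6 passed the 2-fold step in pair 1. Egr2, the zinc finger factor that switches Schwann cells to myelination, read 5.60, 4.99 and 5.22 in wild type and 6.76, 5.21 and 5.25 in the mutant. Its 2 probe sets differed by 1.16 and 1.15 in pair 1 and by 0.03 to 0.22 in the others. Cnp, an enzyme of non-compact myelin, read 9.60, 9.56 and 9.60 in wild type and 10.70, 9.71 and 9.92 in the mutant. By the log2 values of the best expressed probe sets it was the only gene of the 32 whose genotypes did not overlap. Of all genes 0.682% had the mutant higher without overlap in log2 values. As percentiles the genotypes of Cnp overlapped, at 94.4, 88.6 and 92.2 in wild type and 98.1, 89.5 and 93.8 in the mutant. The differences of Cnp were 1.10, 0.15 and 0.31, and its other probe sets differed by 0.30 and 0.67 in pair 1. By each of those other probe sets the genotypes overlapped. Pmp22, a protein of compact peripheral myelin that many fibroblasts also make, read 9.65, 11.12 and 10.32 in wild type and 10.69, 11.06 and 10.35 in the mutant. It differed by 1.04, -0.06 and 0.04. Mag, an adhesion protein of the layer next to the axon, differed by 0.40, -0.06 and 0.17. Mal, a raft protein of myelin and of many epithelia, read 9.55, 10.29 and 9.89 in wild type and 9.64, 9.65 and 9.10 in the mutant. It was lower in pairs 2 and 3, by -0.64 and -0.79, and near equal in pair 1 (0.08).

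Mbp, which encodes myelin basic protein, gave opposite readings by different probe sets. Its best expressed probe set read 7.59, 8.50 and 7.93 in wild type and 7.59, 8.31 and 7.90 in the mutant, with exactly equal values on the 2 arrays of pair 1. Its second probe set read 8.11, 6.95 and 5.79 in wild type and 11.75, 7.71 and 6.83 in the mutant. That is a pair 1 difference of 3.64 against 0.76 and 1.05, and mutant replicate 1 lay at the 99.3 percentile. Of the 8 Mbp probe sets 5 differed by 2.73 to 3.83 in pair 1 and the other 3 by 0 to 0.49. The means over all arrays of the first and the second were 7.97 and 7.86, so the rule of 1 probe set per gene turned on a small difference in level. By 5 probe sets Mbp therefore showed a pair 1 gap of the size seen in Nefm and Snap25. Counted over every probe set, 25 of 80 were higher by over 1 in pair 1 (0.455% of all probe sets with 1 symbol were), 1 in pair 2 (0.0515%) and 1 in pair 3 (0.169%). By any probe set 12 of the 22 neuron genes and 4 of the 10 glial genes passed the step in pair 1. Such a count rises with the number of probe sets a gene has. Its share over all genes was not counted, so nothing is read from it.

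**Figure D3:**
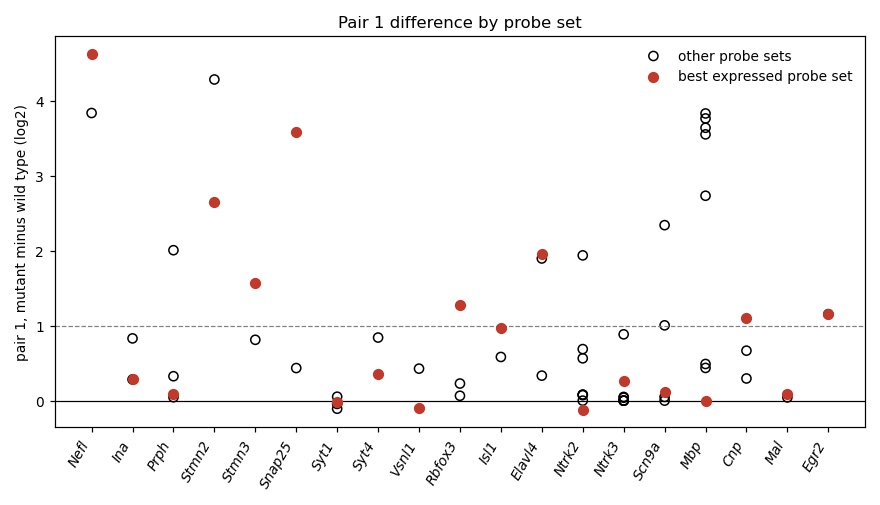
Pair 1 difference (y axis, mutant minus wild type, log2) for every probe set of the 19 nerve genes that have several, 1 array per genotype. Red points are the best expressed probe set of a gene and open circles the others; for Mbp the red point lies at 0 and 5 open circles between 2.73 and 3.83.

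The promoters of Cnp and Pmp22 are shown as those of 2 myelin genes that passed the step in pair 1 and have sequence in the table, with the same motifs in capitals. Cnp lies at chr11:100574689-100574988 on the plus strand. Pmp22 has 4 start sites in the table, and the one with the most matches lies at chr11:63128732-63129031 on the plus strand.
Cnp: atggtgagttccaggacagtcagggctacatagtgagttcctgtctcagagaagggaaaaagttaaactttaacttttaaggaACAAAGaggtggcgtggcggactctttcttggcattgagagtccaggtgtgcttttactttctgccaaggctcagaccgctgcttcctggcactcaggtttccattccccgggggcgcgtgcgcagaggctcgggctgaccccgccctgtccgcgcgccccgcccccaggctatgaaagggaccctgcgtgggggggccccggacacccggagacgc
Pmp22: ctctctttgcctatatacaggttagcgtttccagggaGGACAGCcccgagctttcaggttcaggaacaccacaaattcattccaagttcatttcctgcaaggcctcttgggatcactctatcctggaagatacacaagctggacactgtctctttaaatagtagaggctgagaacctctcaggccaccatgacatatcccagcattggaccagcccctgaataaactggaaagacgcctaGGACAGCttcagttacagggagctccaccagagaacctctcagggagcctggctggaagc
The Cnp promoter holds ACAAAG 167 bases before the start site. Of the 21 genes with sequence, 7 hold it in at least 1 promoter (Cnp, Mag, Rbfox3, Scn9a, Sox2, Stmn3 and Syt1). Counted by promoter, it is in 8 of their 35, where 18.7% of all promoters hold it, so nothing is read from the count. This Pmp22 promoter holds GGACAGC 213 and 10 bases before the start site. The neuron gene Tubb3 shares GGACAGC and the neuron gene Stmn3 shares ACAAAG with them, so neither motif divides the neuron from the glial genes.

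Genes of immature Schwann cells and satellite glia did not pass the step in pair 1. Fabp7, a fatty acid binding protein of immature glia, read 8.31, 8.77 and 9.96 in wild type and 8.97, 9.32 and 9.32 in the mutant. Its differences of 0.66, 0.56 and -0.64 turned direction in pair 3, where the wild-type array was the highest of the 6. Sox2, a factor of immature glia and of cochlear supporting cells, read 3.90, 4.31 and 3.65 in wild type and 4.61, 5.89 and 3.71 in the mutant. Its high array was mutant replicate 2, with a difference of 1.59 against 0.72 and 0.06. Foxd3, a neural crest factor, differed by 0.15, -0.02 and -0.20, and Gfra3, a co-receptor of the ligand artemin on Schwann precursors and sensory neurons, by 0.13, -0.14 and -0.13. Sox10, the factor shared by Schwann cells and melanocytes, read 10.11, 10.69 and 9.86 in wild type and 10.12, 10.55 and 10.25 in the mutant. It differed by only 0.01 in pair 1.

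Set side by side in pair 1, the neuron median exceeded the glial median by 0.32, against 0.21 and 0.18 in pairs 2 and 3. With all probe sets of a gene averaged the pair 1 figure was 0.058, since the glial median was then 0.67 and the neuron median 0.73. With 1 array per genotype in a pair this difference has no test. Since these genes were chosen partly by their pair 1 differences, both medians restate that choice and do not settle which compartment gave the gap. Among the other nerve genes, listed by role, the pair 1 median was 0.19 for axon, 0.29 for synapse and 0.10 for myelinating Schwann cell genes. It was 0.40 for immature Schwann cell, 0.45 for nociceptor, 0.18 for channel and receptor and 0.06 for ear ganglion genes. These medians do not set all neuron lists above the Schwann cell lists. Among the 32 genes, the largest single differences were in filament (Nefl, Nefm), release (Snap25), growth (Stmn2) and myelin (Mbp, by 5 probe sets) genes, and the receptors Ntrk2 and Ntrk3 by their best expressed probe sets and Syt1 by all 4 of its own had little or none.

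Another 133 genes of nerve tissue, written down by role and with the earlier results known, were read in the same way, and 117 were measured. None passed in the unpaired limma fit over all probe sets (Benjamini-Hochberg adjusted p under 0.05), where 0.0055% of genes passed, and none once replicate number was added as a block, where 0.148% did. At an unadjusted p under 0.05 they numbered 0 and 12, 8 of the 12 higher in the mutant. Of all 18193 genes, 14 were higher and 42 lower at that level in the unpaired fit, and 735 and 602 with the block. Nothing is read from these counts. The lower nerve genes included Scn4b of the channel list, by -0.48 (95% interval -0.66 to -0.30, adjusted p 0.212 with the block). It was lower in 3 of 3 pairs. The smallest adjusted p was 1 unpaired and 0.18 with the block, for Scn3a, a sodium channel of developing neurons (a difference of 0.67, 95% interval 0.44 to 0.89, higher in 3 of 3 pairs). By size, 14 of the 117 were higher by over 1 in pair 1, 1 in pair 2 and none in pair 3, and 0, 0 and 1 were lower by as much. Of all genes 0.489%, 0.0824% and 0.165% were higher by over 1 in pairs 1 to 3. Lower by as much were 110, 50 and 57 of the 18193 genes. These lists were written with earlier results known, so nothing is read from the excess.

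The 14 were spread over neuron and Schwann cell lists, and the share of all genes past the step in pair 1 was 0.489%. Axon and cytoskeleton genes held 3 of 16, among them the adhesion molecule L1cam (1.71, -0.10 and -0.03 in pairs 1 to 3) and the axonal motor Kif5c (1.48, 0.67 and 0.39). Synapse and granule genes held 4 of 23, among them Cplx1 (1.50, 0.05 and -0.12) and Snap91 (1.40, 0.13 and 0.16), a fusion regulator and a vesicle recycling adaptor. Channel and receptor genes held 1 of 14, Scn3b (1.31, 0.03 and 0.01). The axonal potassium channel Kcna1 fell just short of the step (0.99, 0.08 and -0.09). Of the ear ganglion list 2 of 11 passed: Nrn1, a neurite growth factor (1.72, 0.12 and 0.05), and Slc17a6, a vesicular glutamate transporter (2.58, -0.12 and -0.09). In the same list Pou4f1, a factor of ganglion neurons, differed by 0.11, 0.00 and -0.02, and Calb1, the calcium buffer calbindin, by -0.05, 2.37 and 0.39, the only gene of these lists past 1 in pair 2. Of 6 nociceptor genes Scn10a, a sodium channel of pain-sensing neurons of somatic ganglia, differed by 1.58, 0.08 and -0.04. Scn3a, Scn3b, Scn4b, Slc17a6, Pou4f1, Calb1 and Scn10a are named after their values were seen.

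Other myelinating Schwann cell genes held 1 of 15, Ugt8a, which makes the myelin lipid galactosylceramide (2.48, 0.44 and 0.79), and S100b differed by -0.54, -0.28 and -0.24. Immature Schwann cell genes held 2 of 9: Ngfr, the low-affinity neurotrophin receptor (1.05, 0.13 and 0.13), and Scn7a, a channel of non-myelinating Schwann cells (1.61, -0.62 and -0.59). Ugt8a and Scn7a are named after their values were seen. Lists of autonomic neurons (8 genes), central neurons (6) and central glia (9) held none, with pair 1 medians of 0.09, 0.00 and 0.00. In pair 1, Npy of the autonomic list differed by 0.12, Camk2a of central neurons by -0.04 and Slc1a2 of central glia by 0.07. Of the others named by rule, the pair 1 differences were 0.55 for Gria4, a glutamate receptor subunit, -0.0096 for Pvalb, a calcium buffer, and 0.08 for Dbh, an enzyme of noradrenaline synthesis. They were 0.06 for the water channel Aqp4, 0.42 for the myelin protein Pllp and 0.61 for the adhesion molecule Ncam1.

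**Figure D4:**
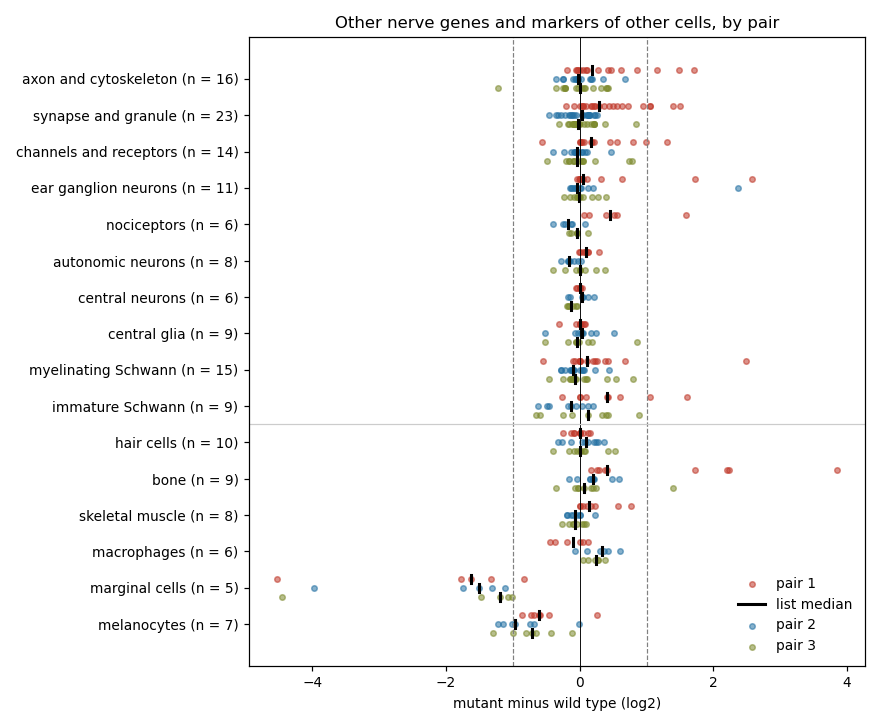
Mutant minus wild type (x axis, log2) for 10 further lists of nerve genes (above the grey line) and 6 lists of markers of other cells (below it), each point 1 gene in 1 replicate pair and each black bar the list median in that pair. Red points of pair 1 reach past 1 in the axon, synapse, channel, ganglion, nociceptor, Schwann cell and bone lists and in none of the autonomic, central, hair cell, muscle and macrophage lists.

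Bone markers were also higher in the mutant of pair 1. Of 9 measured, 4 were higher by over 1 in the mutant there, where 0.489% of all genes were. Among them were Ibsp, a bone matrix protein (3.85), and Dmp1, a protein of osteocytes (2.24). Of the 9, 6 had their highest percentile on mutant replicate 1, as 17 of the 22 neuron genes and 26.2% of all genes did. On wild-type replicate 1, 6 had their lowest, as 5 of the 22 neuron genes and 11.7% of all genes did. Ibsp read 3.65, 7.88 and 7.48 in wild type and 7.50, 8.04 and 7.41 in the mutant, so its odd array was wild-type replicate 1. The log2 of the summed bone marker level ran from 9.62 to 11.05 in wild type and from 10.69 to 11.26 in the mutant. For hair cell markers, of which 0 of 10 were higher by over 1 in pair 1, it ran from 9.63 to 10.62 and from 9.51 to 10.68. For skeletal muscle markers, with 0 of 8, it ran from 8.18 to 9.08 and from 8.29 to 9.01. For macrophage markers, with 0 of 6, it ran from 11.79 to 12.51 and from 11.76 to 12.85. The part of bone or of RNA quality in the nerve gene values of pair 1 was not tested. Of the 89 genes that were higher by over 1 in pair 1, 12 were from the 32 nerve genes, 14 from the other nerve lists, 4 were bone markers and 59 were on no list.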

How the data were processed

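The authors deposited 1 table of log2 expression values per probe set for 6 arrays, processed by RMA according to the labels (per the submitters' processing notes), with version and settings not stated there. That the scale is log2 follows from the range of the values, and they were not altered. Of 45101 probe sets 64 controls were left out; 34945 had 1 gene symbol in the platform annotation. The 33 genes, the other lists and the tests were chosen with earlier results of these data known; named genes outside the 33 were, per list, the 2 with the largest pair 1 difference among those above the median level, and Sox10 always, besides those said to be named after their values were seen. Genes passing limma would also have been named.

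The test was limma 3.58.1 in R 4.3.3 (lmFit and eBayes, two-sided, Benjamini-Hochberg over 45037 probe sets), once for genotype alone and once with replicate number added as a block; 3 and 42 probe sets passed. Deviations of same-numbered arrays from the genotype means correlated at 0.879, 0.818 and 0.746, above the limit of 0.1 for pairing by the labels' numbers. Separate processing of each pair may contribute to these correlations. The labels do not call the pools separate litters, so a p-value covers only the spread over these 6 arrays. An exact permutation test of 3 against 3 could not go below p = 0.1. Simulated data with known changes were run through both fits, and both had to return the mean size of the smaller change. Detection of changes was required only of the fit with the replicate block. The power of the unpaired fit was therefore not checked. With 3 arrays per genotype, their number limits the precision.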

Additional observations from a re-analysis of the deposited data

How the results depend on the processing

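In the unpaired fit 3 probe sets passed, and with the replicate block 42. The filter on level, normalization across arrays, centring and other eBayes options gave 2 to 4. Leaving out 1 array gave 2 to 11: 11 without the wild-type array and 9 without the mutant array of pair 1, and 5 without mutant replicate 2. In the block fit without replicates 1, 2 and 3, 7, 0 and 0 passed. These block fits, and the percentile figure and the neuron minus glial figures of pairs 2 and 3 given next, were chosen after seeing the data. No other nerve gene tested passed limma in these 14 alternatives; 117 were tested in each but the filter on level, which left 53. The replicate block changed no other call.

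Over the neuron genes the median difference of 0.40 was 0.31 to 0.42 under the 5 other settings, and leaving out 1 pair gave 0.17 to 0.51. The glial median of 0.16 was 0.07 to 0.24 under those settings and -0.023 to 0.26 when 1 pair was left out; it was below 0, at -0.023, without replicate 1. The neuron median exceeded the glial median in pair 1 by 0.32, by 0.058 with all probe sets of a gene averaged, and in pairs 2 and 3 by 0.21 and 0.18. As percentiles of all probe sets the pair 1 figure was 9.41 points. Of the neuron genes 9 passed the step in pair 1, and 4 after the filter on level, which left 11 of 22. Of the glial genes 3 passed, and 5 with a step of 0.5. The cause of the other shifts was not tested. Signal over background is not given, so differences of genes at low percentiles are uncertain in size.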
